A study of Mus musculus with 28 samples.

Results

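The mitosis genes described here are 38 genes that act while a cell prepares its chromosomes for division, separates them and splits. They were chosen by name, and each was read from the 1 array probe set whose annotation names that gene alone and whose mean was highest in the experiment. A probe set of that kind was found for 36 of the 38, and all 36 passed the filter on dim probe sets, out of 8422 genes tested in the sorted and 7235 in the transduced experiment. The expression of Ccnb1 and Cdca8 is not analysed here, although their promoters count among those searched for sequence letters.

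Mouse marrow RNA was hybridised to 28 Affymetrix arrays in 2 experiments that the series' design text calls noncomparable, since their RNA was amplified on separate days. The sorted experiment held 6 arrays of L-GMP, leukaemic cells from the marrow (the series title names MLL-AF9 as the transforming fusion) with the surface markers of granulocyte-macrophage progenitors (lineage negative, Sca-1 negative, Kit positive, Fc receptor positive, CD34 positive). It also held 5 arrays of a stem cell enriched fraction (HSC; lineage negative, Sca-1 and Kit positive) and 3 of megakaryocyte-erythroid progenitors (MEP; Fc receptor and CD34 negative). A further 4 arrays held common myeloid progenitors (CMP; labelled Fc receptor positive and CD34 low) and 4 held normal granulocyte-macrophage progenitors (GMP; Fc receptor positive and CD34 high). MEP, CMP and GMP were all taken as lineage negative, Sca-1 negative and Kit positive. In the transduced experiment, 3 arrays were of GMP with MLL-AF9, a fusion of the histone methyltransferase KMT2A (MLL) with the elongation cofactor MLLT3 (AF9), and 3 were of GMP with the green fluorescent protein GFP. Strain, age, the vector or other means by which the fusion was introduced, the number of leukaemias, the time after transduction and the number of animals behind each array are not given in the sources used here. The labels do not say whether replicates are separate animals, and all p-values therefore rest on a spread between samples that may be technical.

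Entry into mitosis depends on cyclin A2 and B-type cyclins bound to CDK1, which together with Polo-like and Aurora kinases condense the chromosomes and build the spindle. The spindle checkpoint holds back the anaphase-promoting complex until every kinetochore is attached, after which CDC20 and UBE2C let it mark cyclin B and securin for destruction, and kinesins and midzone proteins finish cytokinesis. Most of these genes are transcribed late in the cell cycle through CCAAT boxes, which bind NF-Y, and through an element known as CHR, which binds the MuvB complexes. In marrow, most stem cells are at rest while committed progenitors divide often, so levels of these mRNAs are commonly read as a sign of how much of a population is dividing. In RNA from bulk samples, fewer dividing cells and less of such an mRNA per cell cannot be told apart.

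The promoters are shown because many members share short sequences there. RefSeq (GRCm38.p6) gave a promoter of 250 bases before and 50 bases from the start of the gene for 31 of the 38 members, and 7 had no entry (Incenp, Kif20a, Ccna2, Tpx2, Aurkb, Foxm1 and Dlgap5). The letters CCAAT, searched on both strands, stood in 25 of the 31 (80.6%), against 42.9% of the 6851 tested genes with a promoter entry and 41.1% of all 27025 genes in the table. TTTGAA, a form of the CHR element searched on both strands, stood in 21 of 31 (67.7%), against 14.5% of the tested genes and 20.2% of all genes. Its variant TTCGAA stood in 3 members (9.68%), against 2.39% of the tested genes and 1.8% of all genes. A CCAAT that ended before a TTTGAA began was present in 20 members (64.5%), against 3.04% of the tested genes and 4.22% of all genes. A match of these letters is a description of the sequence and not a mapped binding site. For 8 members the promoter is printed from 100 bases before to 30 bases from the start, 5′ to 3′ along the gene, with CCAAT (or ATTGG on the other strand) and TTTGAA (or TTCAAA) in capitals. Ccnb2 (chr9:70421525-70421654, minus strand), Cdk1 (chr10:69352883-69353012, minus), Cdc20 (chr4:118437314-118437443, minus), Ube2c (chr2:164769829-164769958, plus) and Kif11 (chr19:37376282-37376411, plus) carry both kinds of letters in the printed stretch, where the TTTGAA of Ccnb2 begins at base 5 after the start. Cks2 (chr13:51645132-51645261, plus), Birc5 (chr11:117849137-117849266, plus) and Kif23 (chr9:61946770-61946899, minus) are shown because the levels of Cks2 and Kif23 were ordered across the sorts unlike those of most members, and because Birc5 carried neither motif.
Ccnb2: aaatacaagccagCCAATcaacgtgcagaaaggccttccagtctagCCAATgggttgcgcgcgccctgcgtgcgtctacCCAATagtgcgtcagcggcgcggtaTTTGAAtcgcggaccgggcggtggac
Cdk1: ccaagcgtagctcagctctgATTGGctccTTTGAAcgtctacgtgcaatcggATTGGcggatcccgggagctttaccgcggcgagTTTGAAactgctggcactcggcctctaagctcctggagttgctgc
Cdc20: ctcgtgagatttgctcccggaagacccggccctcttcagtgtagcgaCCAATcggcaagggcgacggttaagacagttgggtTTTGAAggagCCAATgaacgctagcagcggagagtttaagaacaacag
Ube2c: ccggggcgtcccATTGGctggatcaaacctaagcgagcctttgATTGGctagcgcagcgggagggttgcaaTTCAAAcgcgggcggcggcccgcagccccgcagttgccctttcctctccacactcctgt
Kif11: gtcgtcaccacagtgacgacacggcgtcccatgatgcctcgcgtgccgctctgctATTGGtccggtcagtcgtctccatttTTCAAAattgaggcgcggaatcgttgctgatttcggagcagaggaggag
Birc5: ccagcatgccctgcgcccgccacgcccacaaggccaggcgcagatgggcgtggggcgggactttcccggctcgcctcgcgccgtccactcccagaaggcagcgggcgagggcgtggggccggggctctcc
Cks2: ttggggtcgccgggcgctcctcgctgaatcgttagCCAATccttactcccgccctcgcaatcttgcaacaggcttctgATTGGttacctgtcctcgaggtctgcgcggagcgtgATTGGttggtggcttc
Kif23: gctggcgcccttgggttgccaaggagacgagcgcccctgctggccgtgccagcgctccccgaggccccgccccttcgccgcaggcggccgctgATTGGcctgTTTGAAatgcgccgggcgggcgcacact

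Ccnb2 carried 3 CCAAT letters and 1 TTTGAA in the printed stretch, and Cks2 carried CCAAT letters without TTTGAA. Kif23 carried 1 of each, close to the start. In the full window, Birc5, Mad2l1, Melk, Nusap1 and Tacc3 had neither CCAAT nor TTTGAA.

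All levels below are log2 array intensities after scaling within the experiment, on which a difference of 1 is a 2-fold difference, and levels of different probe sets were not set against each other. No member was at the floor of 5.27 (sorted) or 6.29 (transduced) on any array. Dim members were Kif4, above the sorted experiment's median of 6.75 on 3 of 22 arrays, Nek2 on 7 and Ttk on 14. Of the 36 members, 20 had several probe sets, and 14 had several that passed the filter, of which 0 were called in opposite directions in any of the 10 sorted comparisons. Some of their probe sets were called and others not for 8 of these 14 in L-GMP minus CMP, 6 in MEP minus GMP, 5 each in HSC minus CMP and HSC minus GMP and 1 to 3 in the others, and in L-GMP minus GMP and HSC minus MEP the sign was shared by 9 of 14. Sort markers fitted the labels in part. Procr, a stem cell receptor, averaged 9.21 ± 0.21 in HSC (SD, n = 5) and 5.27 to 5.50 in the other sorts. Gata1, the erythroid factor, averaged 9.46 ± 0.09 in MEP (n = 3) and 7.69 in CMP. Elane, neutrophil elastase, averaged 12.36 ± 0.38 in L-GMP, 12.60 ± 0.24 in GMP and 8.56 in CMP. Klf1, Epor and Car1 were also highest in MEP, and Hlf in HSC. Itga2b and Pf4, listed for MEP, averaged 11.01 and 10.94 in CMP, against 10.62 and 10.90 in MEP. Mpo, Prtn3 and Ctsg, listed for GMP, averaged 12.25, 12.02 and 11.79 in CMP, against 12.92, 12.86 and 12.83 in GMP. Mecom, listed for HSC, did not pass the filter. Fcgr3, which encodes an Fc receptor of the sort, averaged 9.65 ± 0.29 in L-GMP and 9.51 ± 0.35 in GMP but 5.47 ± 0.23 in CMP, where 2 of 4 arrays lay at the floor although the CMP title reads Fc receptor positive. Cd34 averaged 9.57 ± 0.26 in CMP and 8.94 ± 0.14 in GMP, against the titles' low and high.

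Some arrays stood apart from others of their sort. A list of 10 immediate early genes (Fos, Jun, Egr1 and others that respond within minutes to stimulation or handling), drawn up after the data had been seen, had 9 measured members in the sorted experiment. Their mean level spanned 6.90 to 8.49 on the L-GMP arrays. On the HSC arrays it was 8.84 for replicate 1 and 10.71 to 11.77 on the others, and on the MEP arrays 10.04 to 10.72. On the CMP arrays it was 6.91 for replicate 1 and 10.5 on the other 3, and on the GMP arrays 6.78 for replicate 1 and 9.35 to 9.77 on the others. HSC replicate 4 had the highest level of these genes, 11.77, and the lowest level of mitosis genes. The 3'/5' ratio, the log2 signal at the 3' over the 5' end of control transcripts, which is higher where amplified RNA is shorter, averaged 2.85 ± 0.08 in L-GMP, 3.09 ± 0.15 in HSC, 3.10 ± 0.10 in MEP, 2.996 ± 0.06 in CMP and 2.92 ± 0.31 in GMP (SD). Of 5 macrophage markers, all measured, the level of the summed intensities was 11.24 to 11.7 on L-GMP arrays and 9.07 to 10.68 on the arrays of the other sorts, with C1qa at the floor on 3 of 6 L-GMP arrays. The markers did not all go this way. Adgre1 averaged 10.48 in L-GMP and at most 7.36 in another sort (GMP). Vcam1 averaged 8.29 in L-GMP, above GMP (7.95) but below HSC (8.54), MEP (8.89) and CMP (8.76). The part of these measures in the results was not tested beyond the values without single arrays, without the 3 replicates 1 and with the 3'/5' ratio as a covariate.

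**Figure D1:**
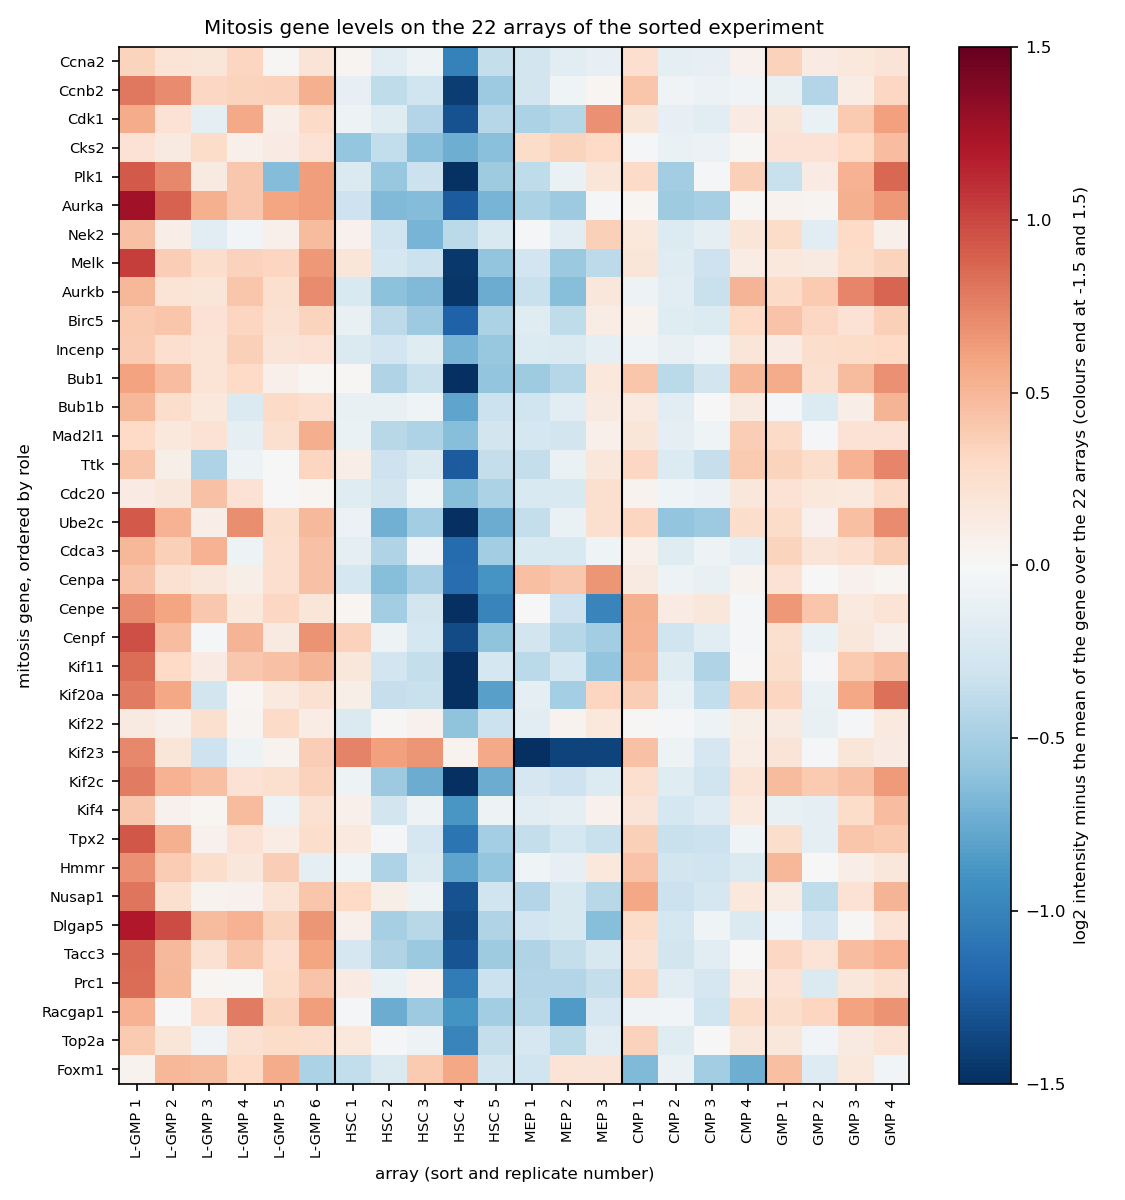
Each row is a mitosis gene and each column an array of the sorted experiment, in the order L-GMP, HSC, MEP, CMP and GMP, and the colour gives the log2 intensity minus the mean of that gene over the 22 arrays, with colours ending at 1.5 in both directions. L-GMP and GMP columns are mostly above and HSC columns mostly below the mean of a gene, HSC replicate 4 is low in nearly all rows, and Kif23 is low on the 3 MEP arrays.

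Averaged over the 36 members, the log2 level was 9.32 ± 0.17 in L-GMP (SD, n = 6), 8.56 ± 0.39 in HSC (n = 5), 8.78 ± 0.12 in MEP (n = 3), 8.98 ± 0.21 in CMP (n = 4) and 9.23 ± 0.15 in GMP (n = 4). The L-GMP arrays lay between 9.16 and 9.61 with a median of 9.29. The HSC arrays stood at 8.97, 8.68, 8.72, 7.92 and 8.52. Every L-GMP array was thus above every HSC array, and HSC replicate 4 was the lowest of the 22. The MEP arrays stood at 8.71, 8.72 and 8.93, the CMP arrays at 9.21, 8.80, 8.79 and 9.10, and the GMP arrays at 9.22, 9.03, 9.29 and 9.40. L-GMP overlapped with GMP and, through CMP replicate 1, with CMP, HSC overlapped with MEP, and CMP with HSC, MEP and GMP. L-GMP had the highest group mean for 24 of the 36 members, GMP for 9, MEP for 2 (Cks2 and Cenpa) and HSC for 1 (Kif23). HSC had the lowest group mean for 30, MEP for 5 (Cenpf, Kif23, Nusap1, Prc1 and Top2a) and CMP for 1 (Foxm1).

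**Figure D2:**
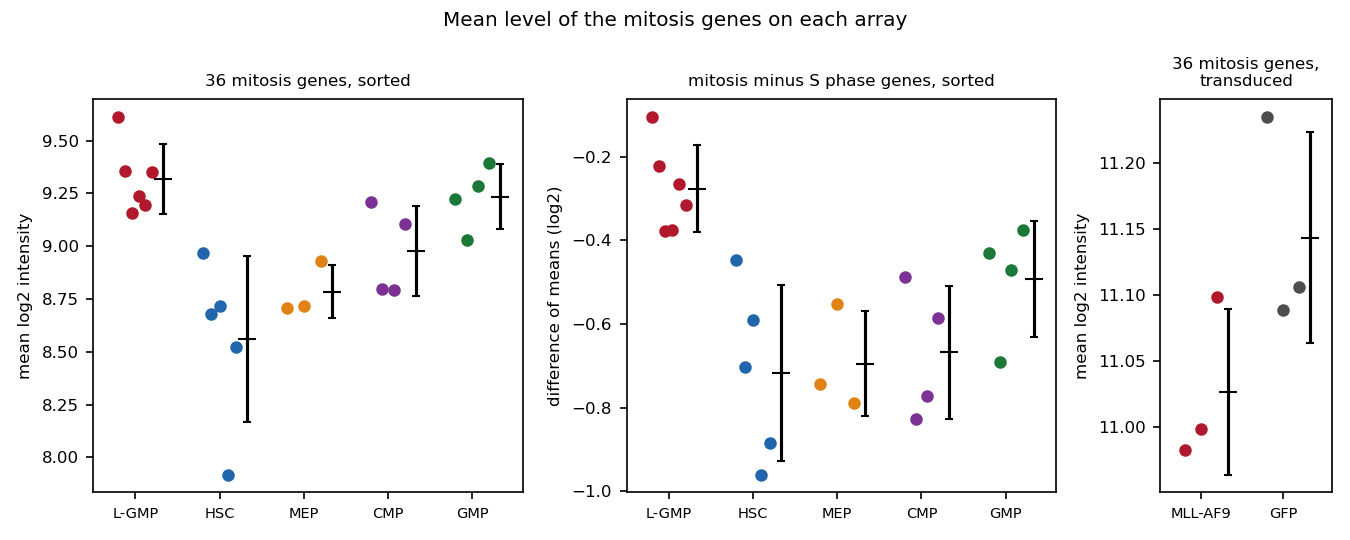
Points are arrays and the bars give the mean and SD of each group. The left panel shows the log2 level averaged over the 36 mitosis genes, with the sorts ordered L-GMP, HSC, MEP, CMP and GMP. The middle panel shows that level minus the mean level of the S phase genes in the same sorts. The right panel shows the level of the 36 genes in the transduced cells MLL-AF9 and GFP, on an axis of its own. In the left panel L-GMP arrays lie between 9.16 and 9.61 and HSC arrays between 7.92 and 8.97, and in the right panel the MLL-AF9 and GFP arrays overlap.

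Nearly all mitosis genes were higher in L-GMP than in HSC. Of the 36, 32 rose and 0 fell (limma, Benjamini-Hochberg adjusted p under 0.05), while 47.2% of all 8422 genes were called in this comparison, 23.4% higher and 23.8% lower. The median log2 change of the members was 0.78 and that of all genes 0.00, and 8 members rose at least 2-fold. The count was 31 to 34 when any 1 of the 22 arrays was left out, 32 without HSC replicate 4, 34 without replicates 1 of HSC, CMP and GMP together, and 29 with the 3'/5' ratio as a covariate. The arrays of L-GMP and HSC did not overlap for 16 of the 36 members, all higher in L-GMP, against 15.8% of all genes.

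Among the cyclins and CDK partners all 4 measured members rose in L-GMP. Cks2, a small subunit that docks CDK1 on its substrates, spanned 11.70 to 11.90 on the L-GMP arrays with a median of 11.80. It stood at 11.05, 11.26, 11.003, 10.89 and 10.998 on the HSC arrays. The gap between the sorts was wide beside the spread within them, and Cks2 rose 1.69-fold (log2 change 0.76 ± 0.07 SE, adjusted p = 1.47e-08). The other sorts stood at 11.90, 11.97 and 11.93 (MEP), 11.59, 11.52, 11.54 and 11.65 (CMP) and 11.84, 11.85, 11.92 and 12.09 (GMP). HSC was thus the low sort for Cks2 and CMP the next. Ccnb2, a B-type cyclin, Cdk1, the mitotic kinase itself, and Ccna2, the cyclin of S phase and mitotic entry, rose by log2 changes of 1.05, 0.75 and 0.52.

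All 4 mitotic kinases rose. Aurka, which matures centrosomes, spanned 8.91 to 9.76 on the L-GMP arrays with a median of 9.11, against 8.19, 7.84, 7.85, 7.25 and 7.81 on the HSC arrays. It stood at 8.02, 7.95 and 8.49 in MEP, 8.54, 7.97, 8.0005 and 8.52 in CMP and 8.56, 8.54, 9.04 and 9.16 in GMP. The L-GMP arrays were above all HSC, MEP and CMP arrays and overlapped with GMP. The change against HSC was the largest of the 36, 2.70-fold (log2 change 1.43 ± 0.18 SE, adjusted p = 1.08e-06). Melk, a kinase abundant in dividing progenitors, Plk1, the Polo-like kinase, and Nek2, which splits centrosomes, rose by 0.98, 0.98 and 0.46. Plk1 spread widely in L-GMP, between 8.23 and 9.79, and its groups overlapped.

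The chromosomal passenger complex corrects wrong attachments and drives cytokinesis, and its 3 measured subunits rose. Incenp, the scaffold, spanned 10.97 to 11.16 on the L-GMP arrays with a median of 11.01, against 10.57, 10.50, 10.60, 10.08 and 10.22 on the HSC arrays. Its other levels were 10.58, 10.56 and 10.63 in MEP, 10.73, 10.67, 10.73 and 10.96 in CMP and 10.90, 11.05, 11.06 and 11.08 in GMP. L-GMP was above every HSC, MEP and CMP array, and its rise against HSC was 1.57-fold (0.65 ± 0.09, adjusted p = 3.56e-06). Birc5 (survivin), which ties the complex to chromatin, lay between 10.46 and 10.66 in L-GMP with a median of 10.57, and stood at 10.14, 9.85, 9.70, 9.03 and 9.77 in HSC. It read 10.06, 9.86 and 10.35 in MEP, 10.30, 10.07, 10.04 and 10.54 in CMP and 10.68, 10.55, 10.46 and 10.60 in GMP. L-GMP and GMP filled the same range, and the rise against HSC was 1.82-fold (0.87 ± 0.14, adjusted p = 3.40e-05). Aurkb, the kinase of the complex, rose 2.17-fold (adjusted p = 6.23e-05).

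Of the 4 spindle checkpoint genes 3 rose. Mad2l1, which inhibits CDC20 at unattached kinetochores, spanned 9.73 to 10.43 on the L-GMP arrays with a median of 10.11, against 9.79, 9.47, 9.42, 9.25 and 9.61 on the HSC arrays. The groups overlapped by HSC replicate 1, and the rise was 1.51-fold (0.59 ± 0.12, adjusted p = 0.000413). Bub1 and Bub1b, kinase and pseudokinase of the checkpoint, rose by 0.89 and 0.49. Ttk, the kinase that starts the signal, averaged 6.95 ± 0.32 in L-GMP and 6.496 ± 0.50 in HSC and was not called (0.45, adjusted p = 0.0759). The 3 genes of anaphase rose as well. Cdca3, which targets the kinase WEE1 for destruction, lay between 10.05 and 10.64 in L-GMP with a median of 10.53, and stood at 9.98, 9.67, 10.07, 8.97 and 9.61 in HSC. Only HSC replicate 3 reached the L-GMP range, and the rise was 1.74-fold (0.80 ± 0.15, adjusted p = 0.000110). Ube2c, the ubiquitin-conjugating enzyme of the anaphase-promoting complex, and Cdc20, its activator, rose by 1.24 and 0.49.

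Cenpa, the histone variant that marks centromeres, spanned 9.78 to 10.13 on the L-GMP arrays with a median of 9.92, against 9.42, 9.04, 9.20, 8.54 and 8.80 on the HSC arrays. It stood at 10.14, 10.09 and 10.35 in MEP, 9.82, 9.61, 9.57 and 9.74 in CMP and 9.91, 9.68, 9.75 and 9.72 in GMP. HSC was apart at the low end and MEP was the highest sort. The rise in L-GMP against HSC was 1.94-fold (0.95 ± 0.12, adjusted p = 1.05e-06). Cenpe, a kinetochore motor, and Cenpf, a kinetochore and nuclear matrix protein, rose by 1.05 and 0.84.

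Of the 6 kinesins, motors that move or shorten microtubules, 5 rose and Kif23 did not. Kif2c, which takes microtubules apart at centromeres, spanned 8.83 to 9.39 on the L-GMP arrays with a median of 9.02, against 8.54, 8.07, 7.87, 6.98 and 7.87 on the HSC arrays. Its levels were 8.36, 8.30 and 8.41 in MEP, 8.86, 8.44, 8.32 and 8.82 in CMP and 9.10, 9.01, 9.06 and 9.25 in GMP. L-GMP and GMP shared a range above HSC and MEP, and the rise against HSC was 2.26-fold (1.17 ± 0.18, adjusted p = 1.79e-05), with a log2 change of 0.68 over the mean of its kept probe sets. Kif11, which pushes spindle poles apart, Kif20a, of the midzone, Kif4, of condensing chromosomes and the midzone, and Kif22, which moves chromosome arms, rose by 0.91, 0.86, 0.43 and 0.36. Kif23 averaged 9.32 ± 0.36 in L-GMP and 9.69 ± 0.27 in HSC (log2 change -0.37 ± 0.16, adjusted p = 0.0613), the only member below 0.

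Of the 7 spindle and midzone proteins 6 rose. Dlgap5 (HURP), which stabilises the microtubules at kinetochores, spanned 8.62 to 9.48 on the L-GMP arrays with a median of 8.87, against 8.36, 7.78, 7.87, 6.94 and 7.83 on the HSC arrays. It stood at 7.99, 8.04 and 7.64 in MEP, 8.56, 8.02, 8.21 and 8.06 in CMP and 8.23, 7.99, 8.29 and 8.49 in GMP. Every L-GMP array lay above every array of the other sorts. The rise against HSC was 2.33-fold (1.22 ± 0.20, adjusted p = 2.38e-05). Tacc3, which crosslinks spindle microtubules, lay between 9.41 and 10.03 in L-GMP with a median of 9.63, and stood at 8.92, 8.73, 8.63, 7.88 and 8.64 in HSC. It was 8.73, 8.83 and 8.94 in MEP, 9.40, 8.90, 9.02 and 9.18 in CMP and 9.49, 9.39, 9.65 and 9.70 in GMP. L-GMP stood above HSC, MEP and CMP and overlapped with GMP, and the rise against HSC was 2.13-fold (1.09 ± 0.15, adjusted p = 3.26e-06). Racgap1, Hmmr, Tpx2 and Prc1 rose by 0.96, 0.71, 0.70 and 0.60, and Nusap1 was not called (0.56, adjusted p = 0.0551).

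Top2a, the topoisomerase that untangles sister chromatids, spanned 10.90 to 11.35 on the L-GMP arrays with a median of 11.21, against 11.12, 10.94, 10.89, 9.97 and 10.61 on the HSC arrays. The groups overlapped, and the rise was 1.39-fold (0.47 ± 0.15, adjusted p = 0.0144). This call was lost with the 3'/5' ratio as a covariate (adjusted p = 0.0734). Foxm1, a transcription factor that works with MuvB at many of these genes, was not called (0.21 ± 0.20, adjusted p = 0.431). Foxm1 lay between 7.92 and 8.96 in L-GMP with a median of 8.79 and stood at 8.04, 8.19, 8.80, 8.99 and 8.12 in HSC, so it was highest on HSC replicate 4, where most members were lowest. Its other 2 probe sets that passed the filter ranged over group means of 6.63 to 6.89 and 6.79 to 6.99.

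**Figure D3:**
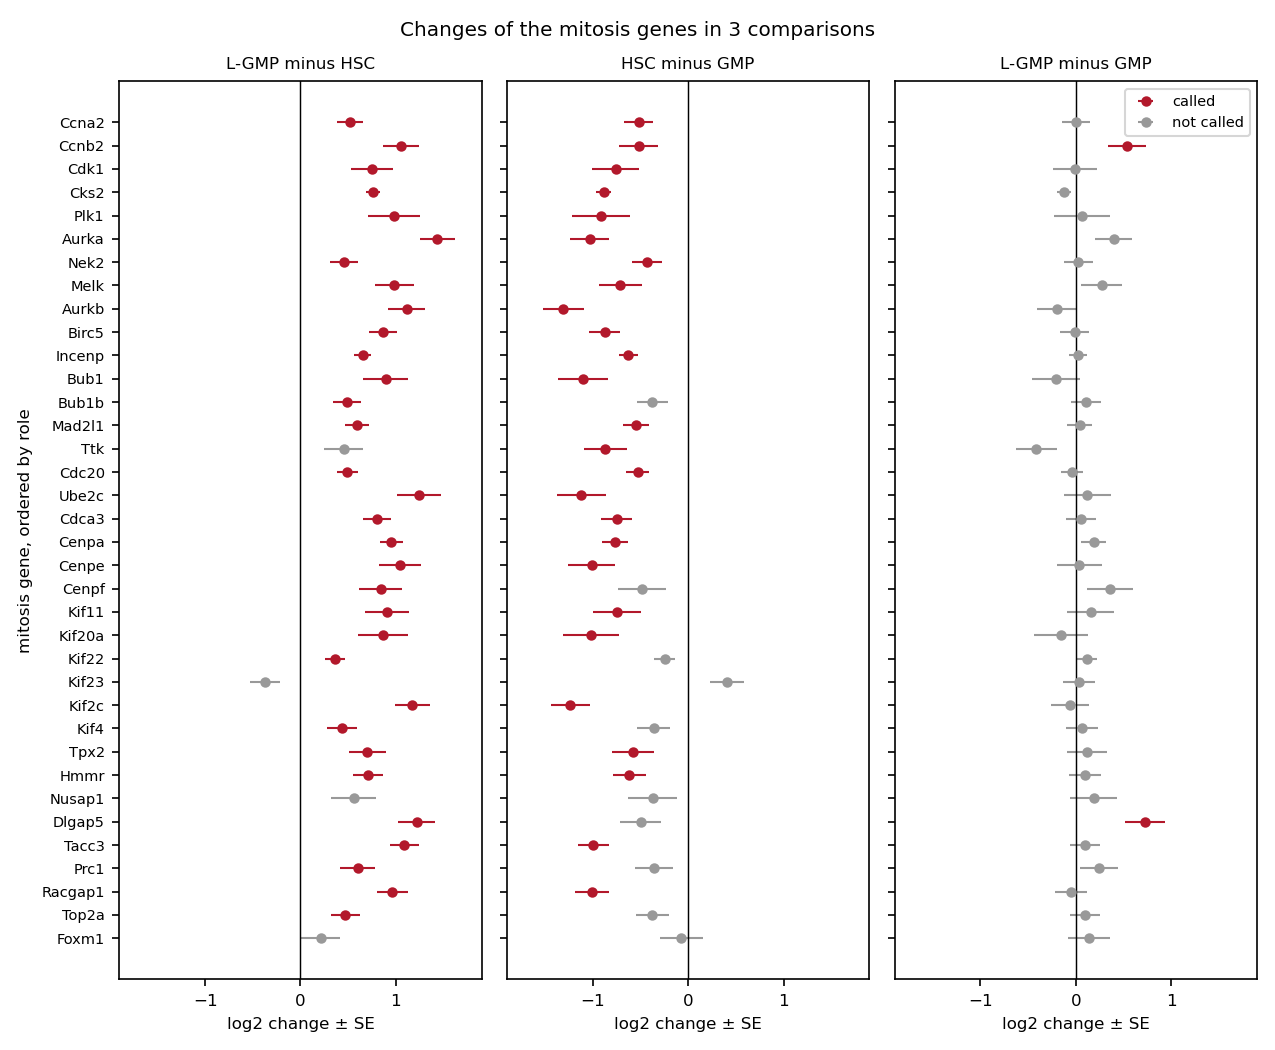
For each mitosis gene, ordered down the page by role, the point gives the log2 change and the line the SE in L-GMP minus HSC (left), HSC minus GMP (middle) and L-GMP minus GMP (right), in red for genes past an adjusted p of 0.05 and grey for the others. The points of L-GMP minus HSC lie right of 0 except Kif23 at -0.37, those of HSC minus GMP left of 0 except Kif23 at 0.41, and in L-GMP minus GMP 2 points are red, Ccnb2 at 0.54 and Dlgap5 at 0.72.

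Most members were also lower in HSC than in normal GMP. In HSC, 26 members fell and 0 rose relative to GMP, while 41.2% of all genes were called, 21.8% lower and 19.4% higher. The median log2 change of the members was -0.67 and of all genes 0.01, and 8 fell at least 2-fold. The count was 20 to 29 with any 1 array left out. Groups did not overlap for 18 members, all lower in HSC, against 19.2% of all genes. All 4 cyclins and CDK partners, all 4 mitotic kinases, all 3 passenger subunits and all 3 anaphase genes fell, with 3 of 4 checkpoint genes, 2 of 3 centromere genes, 3 of 6 kinesins, 4 of 7 spindle proteins and 0 of 2 in the group of Top2a and Foxm1. This comparison and that of L-GMP with HSC share the HSC arrays.

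Aurkb, the passenger complex kinase, stood at 7.35, 6.97, 6.92, 6.12 and 6.83 on the HSC arrays, against 7.86, 7.97, 8.31 and 8.45 on the GMP arrays. No HSC array reached a GMP array, and Aurkb showed the largest fall, 2.48-fold (log2 change -1.31 ± 0.22, adjusted p = 5.13e-05). Racgap1, a GTPase activator that works with KIF23 at the midzone, stood at 7.55, 6.83, 7.03, 6.68 and 7.05 in HSC and at 7.84, 7.90, 8.18 and 8.25 in GMP. It was lower in every HSC array and fell 2.02-fold (-1.01 ± 0.18, adjusted p = 0.000108). Bub1 stood at 8.10, 7.64, 7.75, 6.38 and 7.497 in HSC and at 8.64, 8.32, 8.55 and 8.77 in GMP. Its groups were also apart, by 2.14-fold (-1.10 ± 0.26, adjusted p = 0.00190).

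The members already described fell by similar amounts. Cks2 fell by 0.88 (adjusted p = 1.85e-08), Incenp by 0.63 (3.58e-05), Kif2c by 1.24 (5.38e-05), Tacc3 by 0.99 (6.16e-05), Cenpa by 0.77 (9.78e-05), Birc5 by 0.88 (0.000146), Aurka by 1.03 (0.000309) and Cdca3 by 0.75 (0.000847), with SE between 0.08 and 0.20 and adjusted p in parentheses. For each of these 8 genes, as for Aurkb, Racgap1 and Bub1, every HSC array was below every GMP array. Without any 1 of the 22 arrays all 11 stayed past the threshold, as they did in each of the 7 other settings, although Kif2c fell by 0.60 over the mean of its kept probe sets.

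L-GMP against normal GMP, its counterpart by surface markers, had the fewest members called of the 4 L-GMP comparisons. In L-GMP, 2 members rose and 0 fell relative to GMP, while 33.5% of all genes were called (15.2% higher, 18.3% lower). The median log2 change of the members was 0.07, with a range from -0.41 to 0.72, and that of all genes 0.01. Dlgap5, whose arrays did not overlap, rose 1.65-fold (0.72 ± 0.21, adjusted p = 0.0106), and it remained called without any 1 array and in all 7 other settings, with adjusted p up to 0.0442. Ccnb2, a B-type cyclin, spanned 10.47 to 10.95 on the L-GMP arrays with a median of 10.60, against 10.05, 9.73, 10.27 and 10.47 on the GMP arrays. The highest GMP array came close to the lowest L-GMP array, and Ccnb2 rose 1.45-fold (0.54 ± 0.20, adjusted p = 0.0412). Ccnb2 was not called without L-GMP replicate 1, 2 or 6, without GMP replicate 1, 2 or 3, without the filter, with the replicate number as a block or without replicates 1 of 3 sorts, each of which left 1 member called. Non-overlap held for these 2 members, against 11.4% of all genes higher in L-GMP.

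The other 34 members were not called between L-GMP and GMP. Aurka came next, at 0.40 ± 0.19 (adjusted p = 0.123, 95% interval -0.005 to 0.80). The intervals of Cdk1 (-0.50 to 0.48), Ccna2 (-0.30 to 0.31) and Birc5 (-0.33 to 0.31) lay around 0. Across the 36 members the intervals ran from -0.87 (Ttk) to 1.16 (Dlgap5), and on the probe sets used only that of Dlgap5 reached a 2-fold change. Another kept probe set of Kif11 averaged 8.61 in L-GMP and 7.40 in GMP, more than 2-fold apart. Ttk was the member furthest below 0 (-0.41 ± 0.22, adjusted p = 0.155), with 6.43 to 7.32 on the L-GMP arrays and 7.23, 7.16, 7.43 and 7.63 on the GMP arrays.

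**Figure D4:**
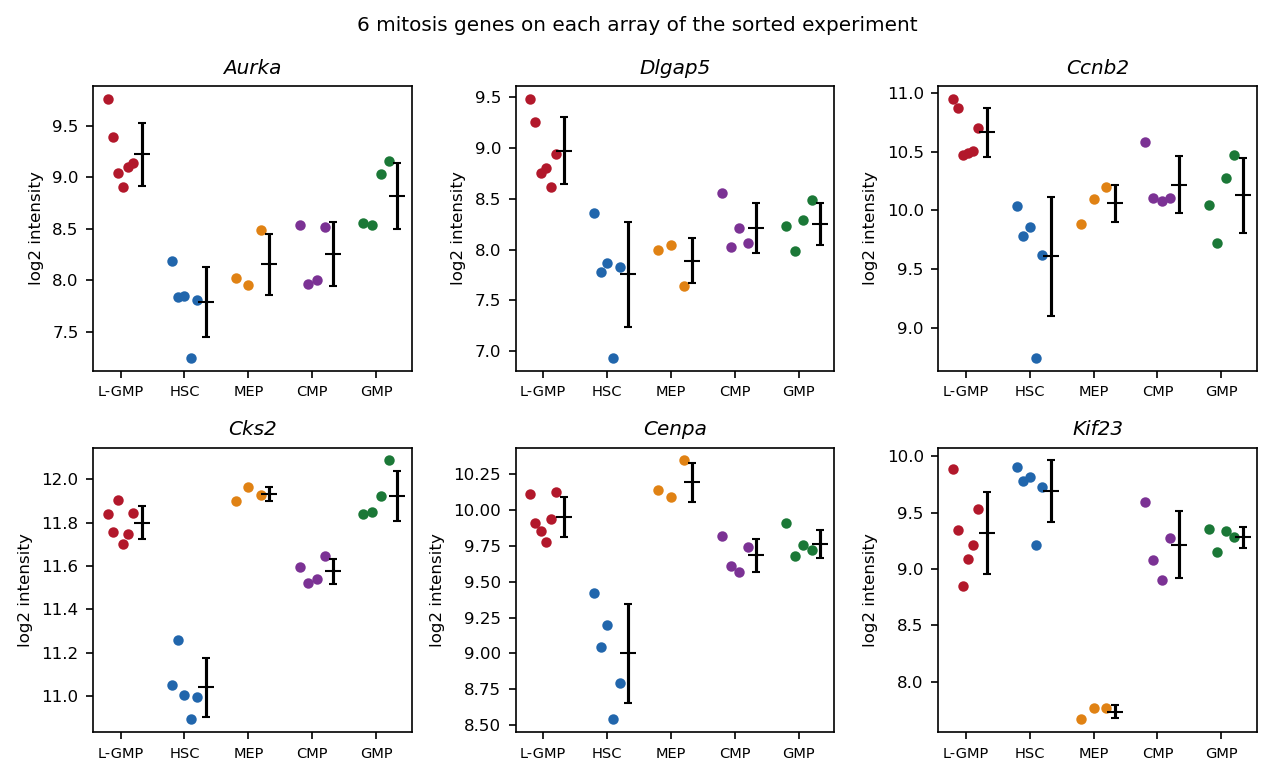
Points are arrays of the sorted experiment and bars the mean and SD of each sort for Aurka, Dlgap5, Ccnb2, Cks2, Cenpa and Kif23, on the log2 intensity scale with an axis range of its own for each gene. Dlgap5 is higher on all 6 L-GMP arrays than on any other array, Cks2 and Cenpa are lowest in HSC, and Kif23 is low on the 3 MEP arrays at 7.66 to 7.77.

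Relative to MEP, 19 members rose in L-GMP and 0 fell, while 45.2% of all genes were called (22.3% higher, 22.9% lower). The median was 0.49, against -0.05 for all genes, and 3 rose at least 2-fold. The same number, 19, did not overlap, against 18.5% of all genes. The count was 12 without MEP replicate 1, 13 without MEP replicate 2, 23 without HSC replicate 4 and 9 with the 3'/5' ratio as a covariate, which averaged 2.85 in L-GMP and 3.10 in MEP. Kif23, which bundles midzone microtubules together with RACGAP1, spanned 8.85 to 9.89 on the L-GMP arrays with a median of 9.28, against 7.66, 7.77 and 7.77 on the MEP arrays. Its groups were far apart, and it rose 3.003-fold (1.59 ± 0.18, adjusted p = 3.30e-07). Melk lay between 8.26 and 9.05 in L-GMP with a median of 8.36, and stood at 7.71, 7.45 and 7.61 in MEP. It was 1.88-fold higher (0.91 ± 0.24, adjusted p = 0.00307). Prc1, which bundles midzone microtubules, lay between 8.59 and 9.42 in L-GMP with a median of 8.94, and stood at 8.14, 8.14 and 8.22 in MEP. It was 1.70-fold higher (0.76 ± 0.21, adjusted p = 0.00599).

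Aurka rose 2.09-fold against MEP (1.07 ± 0.21, adjusted p = 0.000288), Racgap1 1.8995-fold (0.93, adjusted p = 0.000353), Dlgap5 2.12-fold (1.08, adjusted p = 0.000521), Tacc3 1.76-fold (0.82, adjusted p = 0.000575) and Incenp 1.37-fold (0.46, adjusted p = 0.00124). Every L-GMP array was above every MEP array for each of these 5. Cenpf lay between 8.51 and 9.50 in L-GMP with a median of 9.01, and at 8.25, 8.11 and 8.01 in MEP, and rose 1.82-fold (adjusted p = 0.0112), a call lost with the 3'/5' covariate (adjusted p = 0.0698). Cdca3, Ccnb2, Top2a and Mad2l1 rose with adjusted p of 0.02, 0.0269, 0.0310 and 0.0403, and the arrays overlapped for Cdca3 and Mad2l1. The calls of all 4 were lost without MEP replicate 1, without MEP replicate 2 or with the covariate. Cks2 and Cenpa were the members below 0 (-0.13, adjusted p = 0.221, and -0.24, adjusted p = 0.182), and neither was called.

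Relative to CMP, 10 members rose in L-GMP and 0 fell, while 39.9% of all genes were called (18.4% higher, 21.5% lower). All 36 changes were above 0, with a median of 0.30 against -0.01 for all genes, and 0 reached 2-fold. Non-overlap held for 6 members, against 14.1% of all genes. Aurka rose 1.95-fold (0.97 ± 0.19, adjusted p = 0.000388) and Dlgap5 1.69-fold (0.76 ± 0.21, adjusted p = 0.00599), both in every setting and without any 1 array. Foxm1 stood at 7.74, 8.31, 7.88 and 7.68 on the CMP arrays, against the L-GMP range of 7.92 to 8.96. The groups overlapped, and Foxm1 rose 1.67-fold (0.74 ± 0.22, adjusted p = 0.00973) on this probe set, but by 0.28 over the mean of its 3 probe sets that passed the filter. Over such means Tacc3 (0.33, adjusted p = 0.229) and Incenp (0.28, adjusted p = 0.0762) were not called. Tacc3 (0.53, adjusted p = 0.0119), Cks2 (0.22, adjusted p = 0.0250), Incenp (0.27, adjusted p = 0.0283), Cdca3 (0.41, adjusted p = 0.0408) and Racgap1 (0.44, adjusted p = 0.0451) also rose. Another kept probe set of Racgap1 lay further apart, at 7.98 in L-GMP and 7.16 in CMP, against 7.99 and 7.55 on the one used. The call of Racgap1 was lost in 12 of the 22 fits without 1 array and in 4 of the 7 other settings. The calls of Cdca3, Incenp and Cks2 were lost in 7, 5 and 3 of these fits and in 2, 3 and 3 settings. Ube2c and Melk completed the 10, with changes of 0.64 and 0.55 and adjusted p of 0.0462 and 0.0474. The count fell to 3 without CMP replicate 2, 4 without CMP replicate 3, 5 without L-GMP replicate 1, 6 without L-GMP replicate 4, 6 without the filter and 5 with the 3'/5' covariate, and it was 15 without HSC replicate 4.

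Among the normal sorts, HSC was also low against CMP. In HSC, 9 members fell and 0 rose relative to CMP, while 13.4% of all genes were called, 7.43% lower and 6.01% higher. The median was -0.44 against 0.00 for all genes, 4 members did not overlap, all lower in HSC, against 9.19% of all genes, and 0 changes reached 2-fold. Cks2 fell by 0.54 (adjusted p = 8.82e-05) and Cenpa by 0.68 (adjusted p = 0.00151), both without any 1 array and in every setting. Incenp fell by 0.38 (adjusted p = 0.0148) and Kif2c by 0.74 (adjusted p = 0.0192). Over the mean of its kept probe sets Kif2c changed by -0.24 and was not called (adjusted p = 0.152), and neither was Tacc3 (adjusted p = 0.110). Cenpe stood at 9.26, 8.71, 8.96, 7.71 and 8.24 on the HSC arrays, against 9.76, 9.35, 9.40 and 9.20 on the CMP arrays. Only HSC replicate 1 reached into the CMP range, and Cenpe fell 1.80-fold (-0.85 ± 0.25, adjusted p = 0.0241). Tacc3, Birc5, Aurkb and Mad2l1 fell by 0.56, 0.54, 0.72 and 0.46, with adjusted p from 0.0275 to 0.0293. The calls of these genes were lost in 3, 3, 4 and 5 of the 22 fits without 1 array and in 3, 1, 1 and 1 of the 7 other settings. The count was 5 without HSC replicate 4, 4 without CMP replicate 1 and 3 without CMP replicate 4.

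HSC and MEP differed in 3 members, and MEP and CMP in the same 3. In HSC, Kif23 rose and Cks2 and Cenpa fell relative to MEP, while 32.9% of all genes were called (17.4% higher, 15.5% lower). Kif23 stood at 9.91, 9.78, 9.82, 9.21 and 9.73 on the HSC arrays and at 7.66, 7.77 and 7.77 on the MEP arrays, 3.88-fold higher in HSC (1.95 ± 0.19, adjusted p = 5.89e-08). Cks2 was 1.85-fold lower in HSC (-0.89 ± 0.09, adjusted p = 6.02e-08) and Cenpa 2.29-fold lower (-1.19 ± 0.15, adjusted p = 1.50e-06). The 3 genes were also those whose groups did not overlap, against 16.6% of all genes higher and 15.6% lower. The median over the members was -0.25, against -0.03 for all genes, and 7 members were called without HSC replicate 1. In MEP, 2 members rose and 1 fell relative to CMP, while 17.0% of all genes were called (6.19% higher, 10.9% lower). Kif23 fell 2.79-fold (-1.48 ± 0.20, adjusted p = 1.17e-05), with 9.60, 9.08, 8.91 and 9.27 on the CMP arrays. Cks2 rose 1.28-fold (0.35 ± 0.09, adjusted p = 0.00821) and Cenpa 1.42-fold (0.51 ± 0.15, adjusted p = 0.0241), with the call of Cenpa lost without CMP replicate 2 or 3 or MEP replicate 3, which left 2 members called. The median was -0.17, against 0.02 for all genes.

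In MEP, 8 members fell and 1 rose relative to GMP, while 27.5% of all genes were called (15.6% lower, 11.9% higher). Non-overlap was more frequent than calls, at 19 members lower in MEP and 1 higher, against 17.4% and 15.1% of all genes. The median was -0.45, against 0.05 for all genes. Kif23, at 9.36, 9.15, 9.34 and 9.29 on the GMP arrays, fell 2.93-fold (-1.55 ± 0.20, adjusted p = 2.80e-06). Racgap1 stood at 7.15, 6.73 and 7.32 on the MEP arrays and fell 1.97-fold (-0.98 ± 0.20, adjusted p = 0.000860). Tacc3, Incenp, Aurkb, Kif2c, Aurka and Cenpe fell by 0.72, 0.43, 0.84, 0.75, 0.67 and 0.79, with adjusted p between 0.00618 and 0.0406, and Kif2c by 0.45 over the mean of its kept probe sets. Tacc3 and Incenp stayed called without any 1 array and in all 7 other settings. The calls of Cenpe, Aurka, Kif2c and Aurkb were lost in 5, 4, 2 and 1 of the fits without 1 array. Those of Cenpe, Aurka and Kif2c were also lost in 3, 2 and 1 of the other settings. Cenpa rose 1.34-fold (0.43 ± 0.15, adjusted p = 0.0416). The count was 17 without HSC replicate 4, 5 without GMP replicate 4 and 4 without MEP replicate 2. CMP and GMP differed in 1 member, Cks2, which fell 1.27-fold in CMP (-0.35 ± 0.08, adjusted p = 0.00587), while 16.8% of all genes were called (8.18% lower, 8.6% higher). The median there was -0.27, against 0.01 for all genes, 35 of 36 changes lay below 0, and 4 members did not overlap, against 11.6% of all genes. The number of members called was 4 without HSC replicate 4 and 3 without CMP replicate 4.

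Kif23 was read from 1 probe set, since its other 2 lay at the floor on 21 and 22 of the 22 arrays. Cks2 had another probe set that gave the same order of sorts, with means of 11.23 in L-GMP, 10.44 in HSC, 11.33 in MEP, 11.02 in CMP and 11.27 in GMP. A probe set of Kif11 other than the one used ranged more widely, with means of 8.61 in L-GMP, 6.46 in HSC, 5.92 in MEP, 6.85 in CMP and 7.40 in GMP, against 8.36, 7.45, 7.51, 7.89 and 8.20.

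For 7 further members L-GMP and GMP had the highest means of the sorts, and HSC had the lowest except for Nusap1, where MEP was lowest. The cyclin Ccna2 averaged 11.12 ± 0.11 in L-GMP, 10.60 ± 0.42 in HSC, 10.73 ± 0.08 in MEP, 10.92 ± 0.19 in CMP and 11.12 ± 0.10 in GMP. Cdk1 averaged 10.49 ± 0.28, 9.74 ± 0.49, 10.15 ± 0.66, 10.22 ± 0.17 and 10.50 ± 0.31 in the same order of sorts, and MEP replicate 3, at 10.91, stood more than 1 above the other 2 MEP arrays at 9.74 and 9.79. Neither was called between L-GMP and GMP. Cdc20 averaged 11.35 ± 0.16, 10.86 ± 0.23, 11.11 ± 0.27, 11.20 ± 0.12 and 11.38 ± 0.07, a narrow range on the probe set used. Another kept probe set of Cdc20 ranged more widely, with means from 6.75 in HSC to 8.06 in GMP. A further one ran from 8.74 in HSC to 9.36 in GMP. Ube2c averaged 8.93 ± 0.29, 7.68 ± 0.57, 8.35 ± 0.30, 8.29 ± 0.50 and 8.80 ± 0.27, with HSC replicate 4 at 6.78. Tpx2, which carries Aurora A to the spindle, averaged 8.51 ± 0.32, 7.81 ± 0.48, 7.84 ± 0.05, 8.07 ± 0.32 and 8.39 ± 0.25. Hmmr, a spindle protein and hyaluronan receptor, averaged 9.18 ± 0.27, 8.47 ± 0.29, 8.88 ± 0.15, 8.80 ± 0.34 and 9.09 ± 0.21. Nusap1, which bundles spindle microtubules, averaged 9.10 ± 0.28, 8.54 ± 0.62, 8.43 ± 0.11, 8.84 ± 0.42 and 8.91 ± 0.37 and was the member called in 0 of the 10 sorted comparisons. Cks2 was called in 7, and Cenpa, Incenp and Tacc3 in 6 each.

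Within a sort the members moved together from array to array. After the mean of each sort was removed, the correlation of 2 members over the 22 arrays had a median of 0.66, and 598 of the 630 pairs (94.9%) were above 0. For the 34 S phase genes the median was 0.47 (83.2% of 561 pairs above 0), and for all genes tested 0.00 (50.4%). Without HSC replicate 4, the median over the members was 0.53 and 91.4% of the pairs were above 0. The pairs share arrays, scaling and RNA, and the values describe these arrays only. Tacc3 followed the mean of the other members most closely (r = 0.96), and Cks2 (0.51) loosely. Foxm1 went against it (-0.50) on the 1 probe set used. That probe set did not pass the filter in the transduced experiment, at means of 6.64 with MLL-AF9 and 6.44 with GFP. Foxm1 was read there from another probe set, so the value describes this probe set only.

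Other genes of mitosis were counted in lists that were drawn up with earlier results known. In L-GMP against HSC, 16 of 26 other spindle and cytokinesis genes rose and 1 fell, as did 9 and 2 of 21 kinetochore genes and 6 and 1 of 16 condensin and cohesion genes, where 23.4% of all genes were higher and 23.8% lower. Examples of those that rose are Kpna2, an importin of spindle factors (1.30, adjusted p = 3.5e-06), Ska1, of the kinetochore complex that holds microtubules (1.51, adjusted p = 7.5e-06), and Smc4, of condensin (0.60, adjusted p = 4.1e-06). Among the kinetochore genes that fell was Cenpt (-0.80, adjusted p = 4.7e-06). The 14 anaphase-promoting complex genes were split, with 3 higher and 3 lower and a median of 0.05. Of 9 DREAM, MuvB and NF-Y genes, 3 rose and 1 fell. Tfdp1, the partner of E2F factors, rose by 0.63 (adjusted p = 1.5e-06), and Nfya, an NF-Y subunit, fell by 0.60 (adjusted p = 2.9e-05). In L-GMP against GMP, 2 kinetochore genes were higher and 3 lower, and in the other lists 0 were higher, with 5 spindle and cytokinesis genes, 3 anaphase-promoting complex genes, 1 DREAM, MuvB and NF-Y gene and 0 condensin and cohesion genes lower. Of all genes, 15.2% were higher and 18.3% lower in that comparison. The medians of these 5 lists lay between -0.15 and 0.08.

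The 34 S phase genes were set beside the mitosis genes in the L-GMP comparisons with HSC and GMP. Against HSC, 14 rose and 2 fell (23.4% and 23.8% of all genes), with a median of 0.23, where the median of the mitosis genes was 0.78. Relative to GMP, 0 rose and 6 fell (15.2% and 18.3% of all genes), a share near that of all genes, among them Pola1, the catalytic subunit of the polymerase that primes replication (-0.61, adjusted p = 0.00098), with a median of -0.09, where 2 mitosis genes rose and 0 fell with a median of 0.07. The mean of the mitosis genes minus that of the S phase genes was -0.28 ± 0.10 in L-GMP, -0.72 ± 0.21 in HSC, -0.69 ± 0.13 in MEP, -0.67 ± 0.16 in CMP and -0.49 ± 0.14 in GMP (log2, SD). Its size depends on the probe sets, so that the shift between sorts is what can be read. The L-GMP arrays lay between -0.38 and -0.10 and the GMP arrays between -0.69 and -0.38, which meet at the edge, and the difference was not tested.

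In transduced GMP no mitosis gene was called between MLL-AF9 and GFP. With 3 arrays a side, 0 of 36 members passed, with a smallest adjusted p of 0.483 (limma) and 1 unadjusted p under 0.05, while 0.0276% of all 7235 genes were called, 0.0138% higher and 0.0138% lower. Replicate numbers tracked pairs of arrays here, and with the replicate as a block 0 members passed as well (smallest adjusted p 0.161, 3 unadjusted p under 0.05), while 1.74% of all genes were called (0.207% higher, 1.53% lower). The mean over the members was 10.98, 10.999 and 11.10 on the MLL-AF9 arrays and 11.23, 11.09 and 11.11 on the GFP arrays. The groups overlapped, and within each of the 3 same-numbered pairs the MLL-AF9 array was the lower. The median change was -0.11 (all genes 0.02), with 10 members above and 26 below 0. Every 95% interval stayed within a 2-fold change, from -0.91 (Cenpf) to 0.77 (Ttk).

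Groups did not overlap for 8 members, all lower in MLL-AF9, against 9.01% of all genes. Nek2 stood at 9.15, 9.09 and 9.31 with MLL-AF9 and at 9.43, 9.44 and 9.49 with GFP (-0.27 ± 0.11, adjusted p = 0.483). Melk stood at 10.15, 9.99 and 10.15 with MLL-AF9 and at 10.70, 10.22 and 10.35 with GFP (-0.33 ± 0.15, adjusted p = 0.504). Kif23, Hmmr, Nusap1, Dlgap5, Tacc3 and Prc1 were the others, with changes from -0.36 to -0.12. None of these differences passed the test. Aurka and Ccnb2, which differed between L-GMP and most normal sorts, stood at 11.48, 11.27 and 11.34 and at 11.97, 12.00 and 12.04 with MLL-AF9. With GFP they stood at 11.41, 11.30 and 11.23 and at 12.22, 12.01 and 11.97, in overlapping ranges. Macrophage markers, 5 of 5 measured, were lower with MLL-AF9 (11.48 to 12.14 for their sum, against 12.84 to 13.63 with GFP), and so were the immediate early genes (7.96 to 8.87, against 9.03 to 9.90). The sum of 5 neutrophil markers was 11.29 to 12.85 with MLL-AF9 and 12.49 to 14.33 with GFP, in overlapping ranges. The part of any of these in the values of the mitosis genes was not tested.

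**Figure D5:**
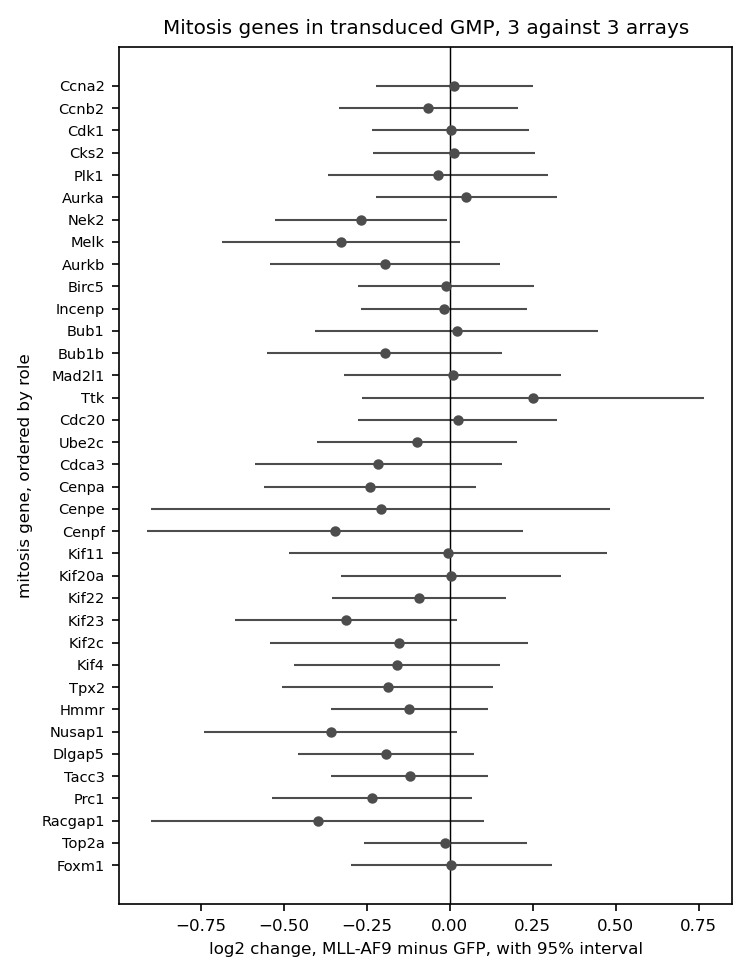
Points give the log2 change of each mitosis gene in GMP expressing MLL-AF9 minus GMP expressing GFP (3 against 3 arrays), genes running down by role, and lines the 95% interval of the limma fit. All intervals lie between -0.91 and 0.77, and 26 of the 36 points are below 0.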

How the data were processed

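The authors deposited probe set intensity values of Affymetrix arrays, for which the submitters' processing notes name MAS5 (version not given in the sources used here). About 10000 sorted cells and about 50 ng of RNA went into a sample, per the labels' protocols. Here each array was scaled to its mean after trimming 2% at each end within its experiment, values under the 25th percentile were raised to it, and log2 was taken. The deposited intensities hold 22690 probe sets, of which 64 controls were left out, 20380 name 1 gene, 691 several and 1555 none. Probe sets above the experiment's median on at least 3 arrays were kept, and each gene was read from its kept probe set of highest mean. Arrays give no counts, so their number limits the precision.

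Differences were tested two-sided with limma 3.58.1 (lmFit, eBayes) in R 4.3.3, all 22 sorted arrays in 1 fit and the 6 transduced arrays in another, with Benjamini-Hochberg adjustment over all genes tested and calls at an adjusted p under 0.05. The procedure was tested on simulated data. Same-numbered arrays deviated together in the transduced experiment (3 of 3 pairs, r 0.379 to 0.596), so the blocked fit is given beside the result there. In the sorted experiment they did so less regularly (18 of 37 pairs above 0.1), and the block is one of 7 alternative settings. The members and lists were chosen with earlier results of these data known. All members could be named, with array values for up to 8 called members of lowest adjusted p per comparison and at least 1 of each role, and at most 3 genes from each other list. The immediate early list and the fit without replicates 1 of HSC, CMP and GMP were chosen after seeing the data.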

Additional observations from a re-analysis of the deposited data

Results flagged for a closer look

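Of 148 groups of 4 to 6 arrays examined, 6 held an array farther from the rest of its group than Dixon's 95% critical value allows, and chance alone gives about 1 in 20. HSC replicate 4 was low for Plk1 (7.39, next array 8.31), Kif23 (9.21, next 9.73) and Tacc3 (7.88, next 8.63). CMP replicate 1 was high for Ccnb2 (10.58, next 10.11) and Hmmr (9.32, next 8.68). GMP replicate 2 was low for Prc1 (8.36, next 8.75). HSC replicate 4 also had the highest immediate early level of the 22 arrays (11.77), and CMP replicate 1 the lowest of the CMP arrays (6.91).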

How the results depend on the processing

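Leaving out 1 array at a time, the number of members called was 31 to 34 in L-GMP minus HSC, 12 to 23 in L-GMP minus MEP, 3 to 15 in L-GMP minus CMP, 1 to 2 in L-GMP minus GMP, 3 to 7 in HSC minus MEP, 3 to 13 in HSC minus CMP, 20 to 29 in HSC minus GMP, 2 to 3 in MEP minus CMP, 4 to 17 in MEP minus GMP, 1 to 4 in CMP minus GMP and 0 in MLL-AF9 minus GFP. The 17 in MEP minus GMP, the 15 in L-GMP minus CMP, the 4 in CMP minus GMP and the 23 in L-GMP minus MEP came without HSC replicate 4, and the 7 and 13 without HSC replicate 1. Without the filter, 6 were called in L-GMP minus CMP, 1 in L-GMP minus GMP and 6 in MEP minus GMP. With the 3'/5' covariate, 9 were called in L-GMP minus MEP and 5 in L-GMP minus CMP. In CMP minus GMP, 2 were called with the floor at the 50th percentile and 3 over the mean of kept probe sets. Without replicates 1 of HSC, CMP and GMP, 1 was called in L-GMP minus GMP, 7 in HSC minus MEP and 2 in CMP minus GMP. The causes were not tested. Of the named changes, 69 were followed gene by gene, of which 0 reversed and 45 stayed called throughout. Other named calls were not followed in this way, among them Cenpa in MEP minus GMP and Ube2c and Melk in L-GMP minus CMP.

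With the replicate number as a block, 1 member was called in L-GMP minus GMP and 5 in HSC minus CMP. In the sorted experiment 18 of 37 same-numbered pairs correlated above 0.1 (range -0.493 to 0.528, the highest between HSC and CMP replicates 1). The numbers thus did not pair the arrays throughout, and whether some of them shared a batch was not tested. With the block, 9 of the 69 changes followed gene by gene were no longer called.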
